A study of Mus musculus with 59 samples.

Results

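The collagen genes are described here in 3 mouse tissues and 1 mouse liver cell line of a study on hydroxycitrate (HC), a natural inhibitor of ATP citrate lyase (Acly), the enzyme that makes acetyl-CoA from citrate. Members were taken by name alone, as every gene symbol written Col, a number, a and a second number in all 4 tables of RNA-sequencing values, which gave 44 of the 24972 symbols in each table. They fall into 7 classes by the structure of their protein, with 11 fibrillar genes, 9 of basement membrane, 9 fibril-associated, 6 of beaded filaments, 4 transmembrane, 3 of networks and 2 others. A gene was tested in a table only if it had a value of 10 or more in 3 libraries of gastrocnemius and of the cell line, or in 5 of soleus and of liver, and 38 of the 44 genes passed in gastrocnemius, 31 in soleus, 20 in liver and 15 in the cell line. The 6 genes under that minimum in gastrocnemius were Col2a1, Col6a4, Col6a5, Col9a2, Col9a3 and Col10a1.

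Collagens are proteins of 3 chains wound into a helix, and they are the main fibers of the extracellular matrix. Types I, III and V build the fibrils of tendon, scar and the sheaths around muscle fibers, type IV forms the net of the basement membrane under muscle fibers and vessels, and type VI makes the fine beaded filaments between them. Fibroblasts and tendon cells are known as the main source of fibrillar chains in muscle, and stellate cells and portal fibroblasts in liver.

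Liver and soleus came from male C57BL/6 mice on a standard diet without (STD) or with HC (HC), killed at 41 weeks of age after 21 weeks on the diet and a 16 h fast, with 5 libraries a group. Gastrocnemius came from wild-type male C57BL/6 mice about 6 months old. The muscle was uninjured, or was taken 2 or 30 days after an injection of cardiotoxin into the left hind limb. Cardiotoxin is a snake venom toxin that kills muscle fibers. The injected mice were without HC (CTX) or with HC in the diet (CTX-HC), with 3 libraries in each of the 5 groups. HC was started only after the injection, so it was given for 2 or 30 days. AML12, an established line of mouse hepatocytes, received a control siRNA (siC) or an siRNA against Acly (siAcly) and was left untreated (Ut) or given 1 mM HC, 10 µM SB-204990 (SB) or 30 µM bempedoic acid (Bemp), both inhibitors of Acly, for 16 h, with 3 libraries in each of the 8 groups. The study describes each gastrocnemius library as a sample of a single mouse. The sources used here do not say whether the liver and soleus libraries of a group came from separate mice, or those of AML12 from separate cultures, and where they did not, the p-values measure only the spread between these libraries.

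The values are gene counts that the authors divided by a size factor per library. They summed to 16.6 to 30.2 M a library in gastrocnemius, 9.06 to 10.2 M in soleus, 8.35 to 9.75 M in liver and 11.5 to 13.2 M in AML12, and the tables were normalized separately, so every test stays within 1 table. Libraries are named by the number in their label. In gastrocnemius, 2 libraries stood apart from their group. On the first principal component, which held 51.7% of the variance, CTX-HC day 30 library 62 lay at 71.5, among the day 2 libraries at -16.3 to 111, while the other libraries of its group lay at -78.7 and -71.9, and CTX day 30 library 51 lay at 1.53 against -76.7 and -68.0. CTX day 2 library 57, at -16.3, lay beside the uninjured libraries at -71.4 to -16.0. In AML12, Acly was at 215.3 to 598.5 in the 12 siAcly libraries and 2576 to 3860 in 11 of the 12 siC libraries, and the library labelled siC Bemp 11 was at 404. Muscle fiber markers summed to 910261 or more in every gastrocnemius library and hepatocyte markers to 639399 to 1065287 in liver, and hepatocyte markers summed to only 6295 to 45700.3 in AML12.

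Sequence before the RefSeq start is printed for 4 genes that the results turn on, chosen with the values known: a pair of fibrillar genes that were high after injury (Col3a1 and Col1a2) and genes of the pairs that held the low members (Col4a4, next to Col4a3, and Col6a6). The sequences are from RefSeq, build GRCm38.p6, read 5′ to 3′ on the strand of the gene, and capitals mark each match on either strand to 3 short motifs. The letters searched were TATAAA for the TATA box. For the CCAAT box they were those of its name, and for the GC box they were GGGCGG. Bases that the annotation gives to an exon were left out, so that the stretches differ in length. Those of Col3a1, Col4a4 and Col6a6 lie outside every annotated gene, the last ending 76 bases before the RefSeq start. That of Col1a2 ends 126 bases before the RefSeq start and lies inside the gene, which the annotation starts at chr6:4504814, in an intron of a longer transcript.
Col3a1, chr1:45311288-45311537, plus strand: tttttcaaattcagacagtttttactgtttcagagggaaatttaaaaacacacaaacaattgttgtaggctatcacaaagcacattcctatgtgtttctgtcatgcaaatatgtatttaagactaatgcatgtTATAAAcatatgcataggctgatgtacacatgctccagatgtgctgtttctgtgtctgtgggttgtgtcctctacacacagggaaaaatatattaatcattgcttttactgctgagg
Col1a2, chr6:4505370-4505492, plus strand: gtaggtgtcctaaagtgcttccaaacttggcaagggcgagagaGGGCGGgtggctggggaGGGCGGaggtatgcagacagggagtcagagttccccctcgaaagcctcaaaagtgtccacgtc
Col4a4, chr1:82586850-82586920, minus strand: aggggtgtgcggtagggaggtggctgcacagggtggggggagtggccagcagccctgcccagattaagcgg
Col6a6, chr9:105828161-105828335, minus strand: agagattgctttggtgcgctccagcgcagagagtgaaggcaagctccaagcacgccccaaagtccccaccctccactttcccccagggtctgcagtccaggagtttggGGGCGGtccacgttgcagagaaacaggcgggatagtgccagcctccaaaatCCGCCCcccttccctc
The Col3a1 stretch of 250 bases held 1 TATAAA, which was found in 13% of all 27025 promoters over the same bases. The Col1a2 stretch of 123 bases held 2 GGGCGG, found in 13% of promoters over those bases, and the Col6a6 stretch of 175 bases held 2, found in 20.03%. The Col4a4 stretch is the whole of the 71 bases between Col4a4 and Col4a3, which are read away from each other, and it held none of the 3 motifs. Over the 250 bases before the start, 35 of the 44 collagen genes had a promoter in the table, and GGGCGG was in 21 of them (60%) against 32.9% of all promoters, CCAAT in 12 (34.3%) against 34.5% and TATAAA in 5 (14.3%) against 13%. None of the printed matches overlaps another, and a match is a description of letters and not of a bound factor.

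The chains with the highest levels are given within each table. The tables also differ in the library kit named, in the age of the mice and in normalization. A difference between them is therefore not one of tissue alone. To compare genes, each value was divided by the length of the gene's longest coding transcript in kilobases, and these levels per kb are given as mean ± SD within a table. In uninjured gastrocnemius (n = 3) the chain of type III, Col3a1, at 857 ± 174 per kb, the alpha 1 chain of type IV, Col4a1, at 823 ± 561, and the alpha 1 chain of type I, Col1a1, at 813 ± 215, lay within each other's spread, and the partner chains Col4a2 (632 ± 384) and Col1a2 (611 ± 82) followed. In soleus on STD (n = 5) the type IV chains led, Col4a1 at 242 ± 16.3 and Col4a2 at 205 ± 13.6 per kb, ahead of Col1a2 at 127 ± 45.8, Col3a1 at 119 ± 54.8 and Col1a1 at 92 ± 35.7, which overlapped in their spread.

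In liver on STD 1 gene held most of the collagen signal, Col18a1, whose protein is a basement membrane collagen cut to give endostatin, at 2065 ± 269 per kb (n = 5) and 85.7% of the summed level. The next gene, the type V chain Col5a3, was at 63.9 per kb. In untreated AML12 cells with siC (n = 3) Col18a1 was again first, at 2135 ± 530 per kb and 51.2% of the sum, with Col4a1 at 915 ± 236 and Col4a2 at 640.0 ± 152. Basement membrane genes held 94.8 to 95.4% of the summed collagen level per kb in those cells. The share of all summed values that came from the 44 genes was 0.0800 to 0.166% in uninjured gastrocnemius, 0.0567 to 0.0968% in soleus on STD and 0.127 to 0.158% in liver on STD.

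Ratios between chains that form 1 protein spanned a smaller range than the chains did, and so did that of Col3a1 to Col1a1, which form different proteins. Col4a1 and Col4a2, which form the common type IV trimer and lie head to head on chromosome 8 with 22 bases of overlap, had a ratio per kb of 1.19 to 1.48 over the 15 gastrocnemius libraries, a 1.25-fold range, while their values spanned 4.79-fold and 4.02-fold. In soleus the same ratio was 1.115 to 1.253 over 10 libraries. The ratio of Col1a1 to Col1a2, which form type I collagen and lie on different chromosomes, ran from 0.798 to 1.77 in gastrocnemius, a 2.21-fold range against 12.6-fold and 8.85-fold for the genes. Col4a3 and Col4a4, which lie 71 bases apart, ran from 0.632 to 1.68, a 2.66-fold range against 5.22-fold and 4.55-fold. The ratio of Col3a1 to Col1a1 in gastrocnemius had a 2.66-fold range too, against 10.3-fold and 12.6-fold for the genes. In liver the ratio of Col5a1 to Col5a2 had a 2.82-fold range, against 2.83-fold and 5.83-fold for the genes.

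On day 2 after cardiotoxin without HC, 8 of 10 fibrillar genes had a higher mean than in uninjured muscle, and of 9 basement membrane genes 6 had a higher mean and 3, Col4a3, Col4a4 and Col4a6, a lower one, but no collagen gene passed the test. By limma on log2(value + 1) with Benjamini-Hochberg adjustment over all 14033 genes, 0 of 38 collagen genes were called at an adjusted p under 0.05, against 0.0% of all genes, and 9 (23.7%) had an unadjusted p under 0.05, against 14.9% of all genes. Of the 38, 27 had a higher mean log2 value, with a median log2 fold change of 0.44 against 0.03 over all genes, of which 52.2% were higher. The medians by class were 1.32 for 10 fibrillar genes, 1.55 for 2 network genes, 0.41 for 9 basement membrane genes, 0.38 for 7 fibril-associated genes, 0.27 for 4 genes of beaded filaments, 0.31 for 4 transmembrane genes and 0.74 for the other class. In whole tissue, a change in the number of cells of a type and in the RNA per cell cannot be told apart.

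With HC in the diet, 2 days after cardiotoxin, 2 of 38 genes (5.26%) were called, both lower, Col4a3 and Col6a6. Of all genes 9.93% were called and 4.59% were called lower, and 14 collagen genes (36.8%) had an unadjusted p under 0.05 against 35.9% of all genes, so the share of collagen genes was near that of all genes on that measure. Again 27 of 38 genes had a higher mean, with a median log2 fold change of 0.49 against 0.02 over all genes, of which 50.8% were higher. The log2 fold changes of the 38 genes ran from -2.17 to 2.06 in CTX and from -2.51 to 2.14 in CTX-HC. The median was 1.73 for fibrillar genes, of which 6 had a p under 0.05, 5 with a higher mean and 1, Col11a2, with a lower one (log2 fold change -0.89 ± 0.35 (SE), adjusted p = 0.0949, limma). CTX and CTX-HC at day 2 were set against the same 3 uninjured libraries, so the values of both comparisons are given side by side and are not 2 separate findings.

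**Figure D1:**
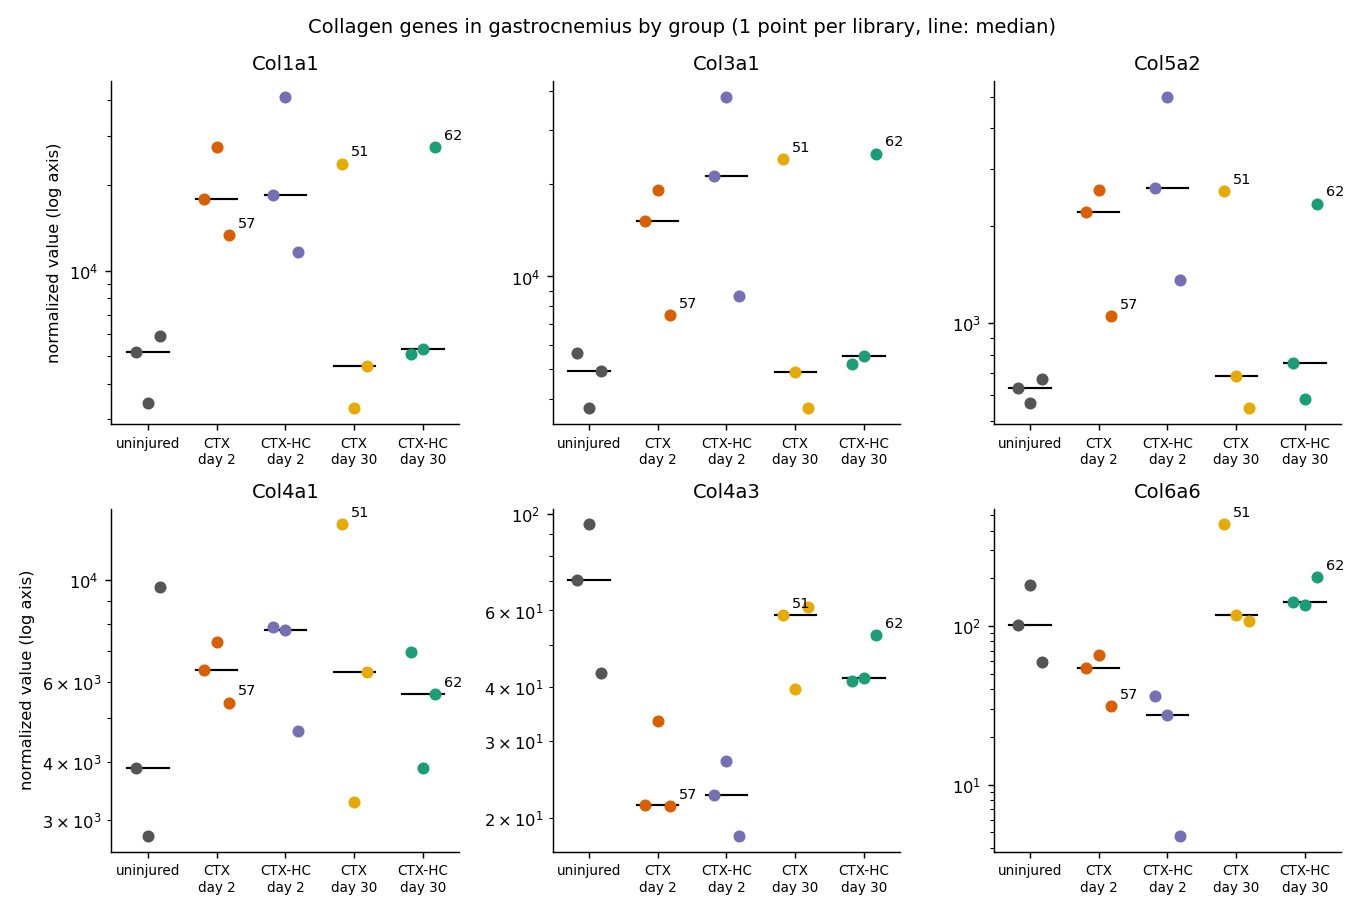
Values of 6 collagen genes (normalized counts, log axis) in each of the 15 gastrocnemius libraries, with 1 point a library, a line at each group's median, and libraries 51, 57 and 62 numbered. The day 2 points of Col1a1, Col3a1 and Col5a2 lie above the 3 uninjured points, those of Col4a3 below them, and libraries 51 and 62 sit with the day 2 points for the fibrillar chains.

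Col1a1, the alpha 1 chain of type I collagen (chr11:94936224-94953042, mm10), was at 5154, 3408 and 5896 in uninjured muscle, 17865, 27268 and 13344 in CTX day 2 and 18449, 41158 and 11692 in CTX-HC day 2. Every day 2 library was above every uninjured one, and CTX-HC library 59 was the highest of all 15. The log2 fold change was 1.99 ± 0.76 (SE) in CTX (adjusted p = 0.302, limma) and 2.14 ± 0.76 (SE) in CTX-HC (adjusted p = 0.0755), which are 3.97-fold and 4.41-fold. Its partner chain Col1a2 was at 3415, 2776 and 3616 in uninjured muscle, 9938, 14101 and 6812 in CTX and 11884, 24551 and 6134 in CTX-HC, again with no overlap, and its log2 fold changes were 1.60 ± 0.67 (SE) (adjusted p = 0.314, limma) and 1.90 ± 0.67 (SE) (adjusted p = 0.0755).

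Col3a1, the type III chain of young and pliable fibrils, was at 5635, 3727 and 4939 in uninjured muscle, 15118, 19162 and 7511 in CTX day 2 and 21259, 38419 and 8666 in CTX-HC day 2. The groups did not overlap, and CTX library 57 and CTX-HC library 60 were the lowest of their groups. Its log2 fold changes were 1.46 ± 0.76 (SE) (adjusted p = 0.37, limma) and 2.03 ± 0.76 (SE) (adjusted p = 0.0842). Col3a1 lies tail to tail with Col5a2 on chromosome 1, 24614 bases apart.

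The type V chains start the assembly of type I fibrils. Col5a1 was at 1166, 1062 and 1205 in uninjured muscle, 2956, 3528 and 1472 in CTX and 3300.1, 7329.6 and 2376 in CTX-HC, and Col5a2 was at 629, 566 and 673, 2199, 2587 and 1050.1 and 2624, 5013 and 1359.5 in the same order. Neither overlapped with the uninjured libraries, although CTX library 57 was close to them for both chains. The log2 fold changes of Col5a1 were 1.12 ± 0.61 (SE) (adjusted p = 0.389, limma) and 1.75 ± 0.61 (SE) (adjusted p = 0.0712), and those of Col5a2 were 1.55 ± 0.64 (SE) (adjusted p = 0.312, limma) and 2.07 ± 0.64 (SE) (adjusted p = 0.0549).

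The major chains of type IV overlapped between day 2 and uninjured muscle. Col4a1 was at 3890.1, 2763 and 9677 in uninjured muscle, 6369, 7319 and 5402 in CTX and 7888, 7776 and 4690.0 in CTX-HC, and uninjured library 53 was above every day 2 library. Its log2 fold changes of 0.43 ± 0.49 (SE) (adjusted p = 0.666, limma) and 0.49 ± 0.49 (SE) (adjusted p = 0.494) were within the spread of the uninjured group. Col4a2 followed it, at 3079, 2256 and 6895 in uninjured muscle, 4681, 5398 and 4444 in CTX and 5184, 5341 and 3333 in CTX-HC, with log2 fold changes of 0.41 ± 0.45 (SE) and 0.32 ± 0.45 (SE) (adjusted p = 0.645 and 0.634, limma).

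Col4a3, a chain of the type IV trimer best known from kidney and lung, was at 70.6, 94.7 and 43 in uninjured muscle, 21.4, 33.3 and 21.3 in CTX and 22.6, 27 and 18.1 in CTX-HC. Every day 2 library was below every uninjured one. Its log2 fold change was -1.38 ± 0.34 (SE) in CTX (adjusted p = 0.2, limma), and in CTX-HC it fell by 1.53 ± 0.34 (SE) on the log2 scale (adjusted p = 0.026). Over 6 fits that left out 1 library of the groups compared the adjusted p was 0.0318 to 0.138, and 4 of them lost the call (0.0579 to 0.138). Its neighbour and partner chain Col4a4 was at 51.3, 77.4 and 44.7 in uninjured muscle, 26.3, 23.4 and 21.9 in CTX and 29.5, 50.5 and 17 in CTX-HC. The CTX group lay below the uninjured one (log2 fold change -1.21 ± 0.38 (SE), adjusted p = 0.267, limma), while CTX-HC library 59 lay inside its range.

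Of the type VI chains only Col6a6 was called, and only in CTX-HC. Col6a1 was at 589, 548 and 756 in uninjured muscle, 818, 930.5 and 647 in CTX and 983, 1704 and 407 in CTX-HC, Col6a2 at 812, 837 and 988, 1163, 1374 and 1012 and 1306, 2407 and 686, and Col6a3 at 1629, 1627 and 2024, 2266, 2879 and 1230.3 and 3791, 5633 and 1499.9. CTX-HC library 59 was the highest day 2 library and library 60 was below every uninjured library for each of these 3 chains. In CTX, all 3 libraries were above the uninjured ones for Col6a2, while those of the other two overlapped with them. The log2 fold changes in CTX-HC were 0.49 ± 0.61 (SE) for Col6a1, 0.56 ± 0.59 (SE) for Col6a2 and 0.86 ± 0.58 (SE) for Col6a3, and in CTX they were 0.34 ± 0.61 (SE), 0.42 ± 0.59 (SE) and 0.19 ± 0.58 (SE). Col6a6, a late-found alpha chain of the type VI family, was at 102, 181 and 59.4 in uninjured muscle, 54.4, 65.5 and 31.1 in CTX and 36.3, 27.6 and 4.73 in CTX-HC. The CTX libraries overlapped with the uninjured ones. All 3 CTX-HC libraries were below the uninjured ones, and it fell by 2.51 ± 0.69 (SE) on the log2 scale (adjusted p = 0.0424, limma). That call was lost in all 6 fits that left out a library of these groups, at adjusted p 0.0580 to 0.177, and without CTX-HC library 60 the log2 fold change was -1.67.

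Among the other classes, Col22a1, a fibril-associated chain of the junction between muscle and tendon, was at 496, 524 and 527 in uninjured muscle, 349, 79.7 and 542 in CTX and 40.2, 205 and 206 in CTX-HC, with log2 fold changes of -1.06 ± 0.76 (SE) and -2.10 ± 0.76 (SE) (adjusted p = 0.492 and 0.0787, limma). The CTX-HC libraries were all below the uninjured ones and the CTX libraries were on both sides of them. Col8a1, a short-chain network collagen of vessel walls, was at 113, 94.1 and 232 in uninjured muscle, 312, 369 and 193 in CTX and 296, 876 and 325 in CTX-HC, with log2 fold changes of 1.05 ± 0.70 (SE) and 1.69 ± 0.70 (SE) (adjusted p = 0.467 and 0.109, limma). The most abundant transmembrane gene, Col23a1, was at 40.4, 45.3 and 22.3 in uninjured muscle, 52.4, 191 and 23.5 in CTX and 67.6, 67.7 and 25.4 in CTX-HC, and the groups overlapped. Col26a1, the most abundant of the other class, was at 11.3, 31.3 and 11.4, 9.29, 82.3 and 31.6 and 18.7, 26.1 and 11.1, and its groups overlapped too.

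Counted over all 38 genes, 9 had every CTX day 2 library above every uninjured one and 4 had every one below, against 29.1% of all genes that did not overlap in either direction. For CTX-HC the counts were 10 above and 4 below, against 50.9% of all genes. The genes above in both were Col1a1, Col1a2, Col3a1, Col5a1, Col5a2 and Col12a1, and the comparisons share their uninjured libraries. Col12a1, a fibril-associated chain of tendon and muscle sheath named here after its values were seen, was at 69.3, 63.1 and 205 in uninjured muscle, 399, 313 and 295 in CTX and 259.6, 741 and 212 in CTX-HC.

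The make-up of the collagen signal shifted with these values. The fibrillar class held 44.3 to 59.7% of the summed level per kb in uninjured libraries, 67.1 to 76.9% in CTX day 2 and 70.6 to 81.9% in CTX-HC day 2. Basement membrane genes held 26.3 to 43.1%, 15.4 to 23.3% and 10.0 to 20.9% in the same order. Beaded filament genes held 8.97 to 12.5%, 5.29 to 6.20% and 5.19 to 6.52%. For these 3 classes the day 2 libraries did not overlap with the uninjured ones. The shares of a library are parts of the same sum, so a higher fibrillar share lowers the others by construction. They are not 3 separate shifts. The median log2 fold change at day 2 was 0.41 in CTX and 0.31 in CTX-HC for the 9 basement membrane genes. In both, 6 had a higher mean and 3 a lower one. For the 4 tested beaded filament genes the median was 0.27 and 0.53, with 3 higher and 1 lower in both. As a share of all summed values, the 44 genes went from 0.0800 to 0.166% in uninjured muscle to 0.169 to 0.429% in CTX day 2 and 0.211 to 0.784% in CTX-HC day 2. The total under this share was 25.1 to 30.2 M, 21.3 to 28.7 M and 16.6 to 21.9 M in the same order, lower in CTX-HC than in uninjured muscle. The values of the 44 genes alone summed to 24150 to 41530, 48450 to 91492 and 46220 to 148743.

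**Figure D2:**
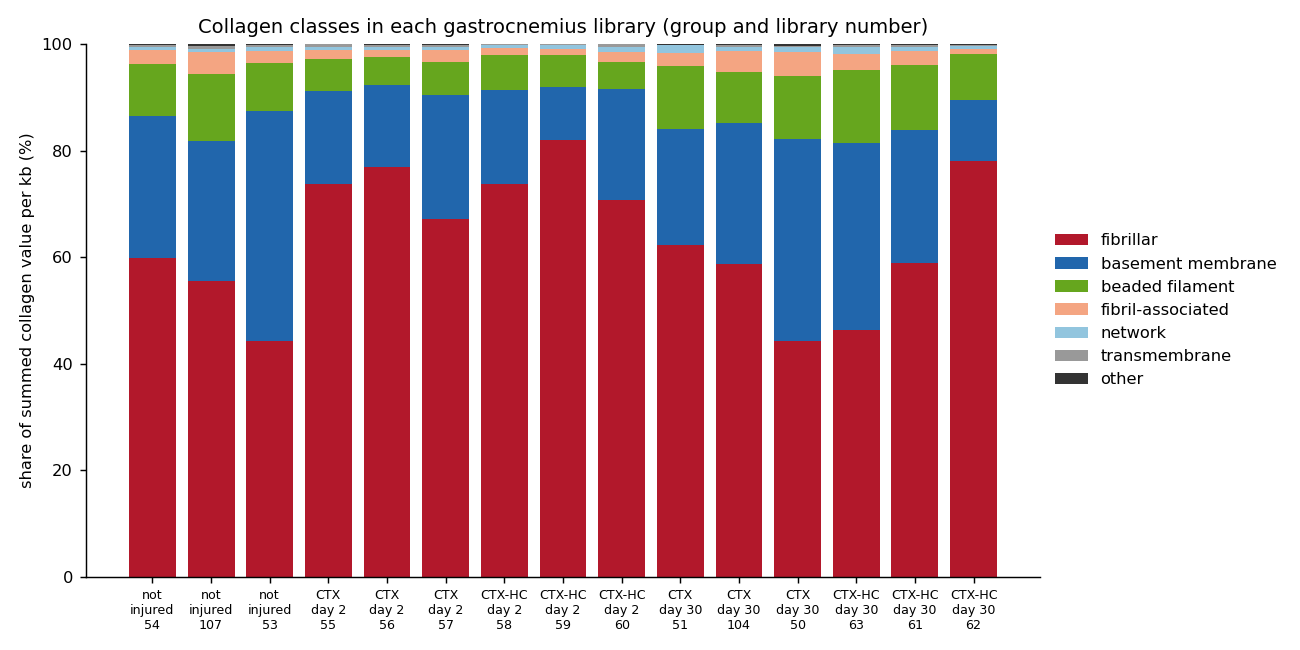
Share of the summed collagen level per kb (percent) held by each of 7 classes in each gastrocnemius library, as stacked bars that reach 100. The fibrillar share is 67.1 to 81.9% in the 6 day 2 libraries and 44.3 to 59.7% in the 3 uninjured ones, and library 62 at day 30 reaches 78.1%.

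Markers of other cells moved at day 2 as well, and their part in the collagen values was not tested. In CTX-HC day 2 against uninjured, 9.93% of all genes were called, 4.59% were called lower and 50.8% had a higher mean. In CTX day 2 against uninjured, 0 genes were called. In a list of 8 genes a count of 0 called is not far from these shares. The 7 macrophage markers summed to 713 to 3507 in uninjured libraries, 1827 to 9905 in CTX and 5579 to 24242 in CTX-HC, with 7 of 7 higher in CTX-HC and 3 called. The muscle fiber markers, by which the tissue was checked, summed to 2351062 to 3150488 in uninjured muscle and 910261 to 1408882 in CTX-HC, with 2 of 8 called lower. Fibroblast markers summed to 4941 to 9799, 3684 to 5727 in CTX and 3658 to 11634 in CTX-HC, and 0 of 8 were called, with the day 2 sums of both groups overlapping the uninjured ones. Tendon cell markers summed to 735 to 2120 in uninjured muscle, 2399 to 3591 in CTX and 1395 to 5188 in CTX-HC, with the CTX sums above the uninjured ones, and 0 of 8 were called.

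Among 5 lists of genes that make, hold or break down collagen, 8 genes were called in CTX-HC at day 2, all higher, and each list is read against 9.93% of all genes called and 35.9% at an unadjusted p under 0.05. Of 21 genes for folding and modification, 17 had a higher mean, 3 (14.3%) were called and 9 (42.9%) had a p under 0.05, with a median log2 fold change of 0.60. P3h1, a prolyl 3-hydroxylase of the endoplasmic reticulum, rose by 1.19 ± 0.21 (SE, adjusted p = 0.0131, limma) and Plod3, a lysyl hydroxylase, by 0.94 (adjusted p = 0.0270). Of 12 tested genes for processing and cross-linking, 2 (16.7%) were called and 8 (66.7%) had a p under 0.05, and Lox, the lysyl oxidase that cross-links collagen and elastin, was at 155, 112 and 259 in uninjured muscle and 2379, 2978 and 714.1 in CTX-HC, all higher (log2 fold change 3.37, adjusted p = 0.0128, limma). Its relative Loxl3 rose by 2.93 (adjusted p = 0.0152).

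Of 9 tested collagen receptors 1 was called and 3 had a p under 0.05, near the shares of all genes, and the one called was the integrin beta 1 chain Itgb1, which rose by 0.73 (adjusted p = 0.0378, limma). Of 10 genes for collagen breakdown 1 was called and 6 had a p under 0.05, and the one called was the collagenase Mmp13, which rose by 2.80 (adjusted p = 0.0392, limma). The TGF-beta list holds ligands and receptors and also Ltbp1 to Ltbp4 and Ccn2. Of its 11 genes 1 was called and 3 had a p under 0.05. The called one was Ltbp2, neither a ligand nor a receptor, which rose by 4.66 (adjusted p = 0.0484, limma). In CTX at day 2 no gene of these 5 lists was called, with medians of 0.34, 0.62, 0.43, 0.91 and 0.15 in the order given and 3, 2, 3, 3 and 1 genes at an unadjusted p under 0.05, against 14.9% of all genes. In CTX, Lox was at 861, 1230 and 544.

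The test uses 1 estimate of the spread over the 5 groups, including the 2 libraries that stood apart. Without CTX day 30 library 51 and CTX-HC day 30 library 62, a choice made after the data were seen, 14 of 38 collagen genes were called in CTX-HC day 2 against uninjured, 10 higher and 4 lower, against 32.3% of all genes. The 10 that rose were Col1a1 (adjusted p = 0.0066, limma), Col5a2, Col1a2, Col5a1, Col16a1, Col3a1, Col27a1, Col8a1, Col14a1 and Col12a1 (adjusted p = 0.0383), and the 4 that fell were Col4a3 (adjusted p = 0.0101), Col6a6, Col22a1 and Col11a2. In that fit 0 genes were called in CTX day 2 against uninjured, where 12 had an unadjusted p under 0.05 and the smallest adjusted p was 0.0598. Without CTX day 2 library 57, 28 of 38 genes had a higher mean in CTX with a median of 0.57, and without CTX-HC library 59, 26 of 38 in CTX-HC with a median of 0.25.

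**Figure D3:**
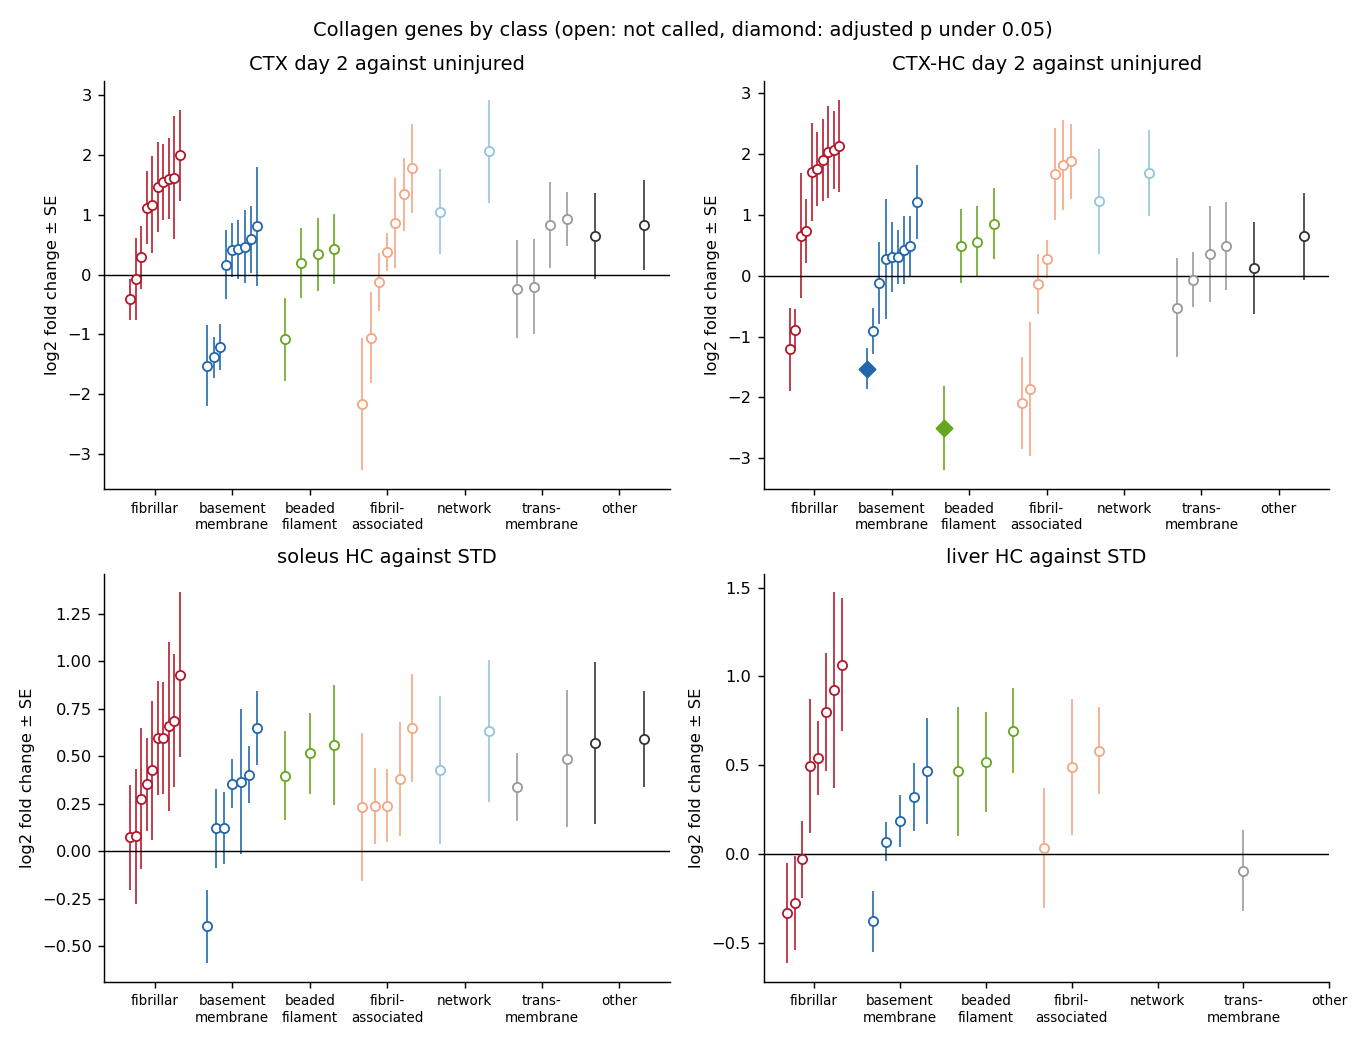
Log2 fold change ± SE of each collagen gene past the filter, grouped by class, for CTX day 2 and CTX-HC day 2 against uninjured gastrocnemius and for HC against STD in soleus and liver. Called genes are diamonds, which only Col4a3 and Col6a6 are in these 4 comparisons, and most fibrillar genes lie above 0.

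HC itself was tested by setting CTX-HC against CTX at the same day. At day 2, 0 of 38 collagen genes were called, against 0.0% of all genes, and 1 had an unadjusted p under 0.05 (7.16% of all genes), Col13a1. This transmembrane collagen of the neuromuscular junction was at 147, 68.5 and 76 in CTX and 28.3, 37.2 and 90.5 in CTX-HC, with overlap between the groups, a log2 fold change of -0.99 ± 0.45 (SE) and an adjusted p of 0.662. The next smallest p was that of Col4a6, a type IV chain with low values of 3.63, 3.45 and 1.05 in CTX and 14.6, 13.7 and 2.41 in CTX-HC (log2 fold change 1.40 ± 0.68 (SE), adjusted p = 0.662, limma). The groups also overlapped for Col1a1, Col3a1 and Col4a1, with log2 fold changes of 0.15 ± 0.76 (SE), 0.57 ± 0.76 (SE) and 0.06 ± 0.49 (SE).

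At day 30 the values turned on libraries 51 and 62. Col1a1 was at 23893, 3268 and 4607 in CTX day 30 and 5083, 5277 and 27341 in CTX-HC day 30, where the high values are libraries 51 and 62. Col3a1 was at 24079, 4894 and 3725 and 5178, 5526 and 25073, with the same libraries high, and the other 4 libraries lay at 3725 to 5526 against 3727 to 5635 in uninjured muscle. Library 51 held the highest value of 13 of the 38 genes and library 62 that of 4, while fibroblast markers summed to 41017 and tendon markers to 10303 in library 51 against at most 9799 and 2120 in uninjured muscle, and their part in the values was not tested.

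In CTX day 30 against uninjured, 0 of 38 genes were called (0.0% of all genes) and 6 had an unadjusted p under 0.05 (3.11% of all genes). Col28a1, a beaded-filament-like chain of peripheral nerve, was at 6.47, 5.18 and 12.5 in uninjured muscle and 72, 10.7 and 52.8 in CTX day 30, and the groups overlapped (log2 fold change 2.07 ± 0.71 (SE), adjusted p = 0.9999, limma). Col8a2, a network chain, was at 12.3, 6.73 and 38 and 325, 27 and 65.5, with library 51 at 325 (log2 fold change 2.41 ± 0.87 (SE), adjusted p = 0.9999, limma). Without libraries 51 and 62, 0 were called and 1 had a p under 0.05. The median log2 fold change over the 38 genes was 0.54 with those libraries and -0.03 without them, against -0.01 over all genes.

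In CTX-HC day 30 against uninjured, 0 of 38 genes were called (0.0% of all genes) and 0 had an unadjusted p under 0.05, against 2.76% of all genes. The smallest p-values were those of Col14a1, a fibril-associated chain, and Col9a1, a chain of cartilage fibrils, with log2 fold changes of 1.54 ± 0.76 (SE) and -2.22 ± 1.11 (SE) and an adjusted p of 1 for both (limma). The median over the 38 genes was 0.58, and 0.13 without libraries 51 and 62. A pair of chains under the filter, Col6a4 and Col6a5, were high in a single library. Col6a4 was at 1.82, 0 and 92.9 and Col6a5 at 3.53, 2.00 and 106 in CTX-HC day 30, where library 62 is the high one, and these genes are the neighbours of Col6a6 on chromosome 9 and were named after their values were seen. In library 62 the keratinocyte markers Krt5, Krt14, Krt1, Krt10 and Dsp summed to 311, and the adipocyte markers summed to 1543. Krt5, Krt14 and Krt1 were at 0 in the uninjured libraries, but that sum holds Krt10 and Dsp as well. Neither sum is set against an uninjured one here. Whether those markers bear on the collagen values of library 62 was not tested.

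Between CTX-HC and CTX at day 30, 0 of 38 genes were called (0.0% of all genes) and 1 had an unadjusted p under 0.05 (0.755% of all genes). This was Col19a1, a fibril-associated chain of muscle, which was at 287, 209 and 338 in CTX and 143, 126 and 110.3 in CTX-HC. All 3 CTX-HC libraries were below all 3 CTX libraries, with a log2 fold change of -1.11 ± 0.32 (SE) (adjusted p = 0.9999, limma), while in uninjured muscle it was at 123, 231 and 128. How many of all genes were free of overlap between these groups was not counted. Col25a1, a transmembrane collagen, had the next smallest p (adjusted p = 0.9999, limma), with a log2 fold change of 1.66 ± 0.82 (SE). Col1a1 and Col3a1 had log2 fold changes of 0.34 ± 0.76 (SE) and 0.24 ± 0.76 (SE), with 1 high library in each group. Without libraries 51 and 62, 0 were called and 2 had a p under 0.05.

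The effect of HC at day 30 was set against its effect at day 2 by an interaction term. HC had been given for 30 and for 2 days, so time after injury and length of HC cannot be told apart. By it 0 of 38 genes were called (0.0% of all genes) and 1 had an unadjusted p under 0.05 (2.53% of all genes), Col19a1 at a log2 difference of -1.01 ± 0.45 (SE) (adjusted p = 0.999, limma). Col4a6 followed at -1.64 ± 0.96 (SE).

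Between day 30 and day 2 the only collagen gene called with all libraries was Col6a6 in the HC arm. In that arm the length of HC changed together with the time after injury, and the 2 cannot be told apart. In CTX, 0 of 38 genes were called against 0.257% of all genes, and 6 had an unadjusted p under 0.05 against 21.1%. The smallest p-values were those of Col4a4, at 26.3, 23.4 and 21.9 on day 2 and 72.7, 51.6 and 45.8 on day 30 (log2 fold change 1.19 ± 0.38 (SE), adjusted p = 0.14, limma), and of Col4a3, at 21.4, 33.3 and 21.3 and 58.6, 39.5 and 61 (log2 fold change 1.04 ± 0.34 (SE), adjusted p = 0.145). Both chains were higher on day 30 with no overlap, and the share of all genes without overlap was not counted for this comparison. In CTX-HC, 1 of 38 genes was called, higher, against 9.74% of all genes called and 4.2% called higher, and 3 had an unadjusted p under 0.05 against 30.4%. Col6a6 was at 36.3, 27.6 and 4.73 on day 2 and 142, 135 and 204 on day 30 and rose by 3.12 ± 0.69 (SE) on the log2 scale (adjusted p = 0.0205, limma). The call was lost without CTX-HC day 30 library 63 (adjusted p = 0.0743) and without library 61 (adjusted p = 0.0647).

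Without libraries 51 and 62 more chains were called between the days, though their share stayed below that of all genes. Both libraries were the high ones of their group for Col1a1 and Col3a1, so leaving them out lowers those chains at day 30 by construction. In CTX, Col1a1 was called, the only one of 38 (5.92% of all genes), and fell by 2.27 ± 0.46 (SE) on the log2 scale from day 2 to day 30 (adjusted p = 0.0299, limma). In CTX-HC, 10 genes were called (37.9% of all genes), with Col6a6 higher and 9 lower on day 30, and the 9 were Col1a1, Col1a2, Col3a1, Col5a1, Col5a2, Col5a3, Col7a1, Col16a1 and Col27a1. Col27a1, a fibrillar chain, fell by 2.53 (adjusted p = 0.00415), Col1a1 by 2.00 (adjusted p = 0.00649) and Col3a1 by 1.84 (adjusted p = 0.0170, all by limma). Each group at day 30 then held 2 libraries.

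In the same lists, 8 genes were called from day 2 to day 30 in CTX-HC with all libraries kept, all lower, against 9.74% of all genes called in either direction and 30.4% at an unadjusted p under 0.05. Of 21 folding genes 3 were called and 10 had a p under 0.05, and those called include P3h1 and P4hb, the beta subunit of prolyl 4-hydroxylase, which fell by 0.89. Of 12 processing genes 2 were called and 5 had a p under 0.05, and Lox fell by 2.59 (adjusted p = 0.0221, limma) and Loxl3 by 2.46 (adjusted p = 0.0196). Of 9 receptors 1 was called and 3 had a p under 0.05, and Itgb1 fell by 0.71. Of 10 breakdown genes 2 were called and 6 had a p under 0.05, and the neutrophil collagenase Mmp8 fell by 4.75 (adjusted p = 0.0224) and Timp1, an inhibitor of these enzymes, by 4.32 (adjusted p = 0.0161), while of 11 TGF-beta genes 0 were called and 0 had a p under 0.05. In the 6 gastrocnemius comparisons other than CTX-HC day 2 against uninjured and against CTX-HC day 30, and in the interaction, no gene of the 5 lists was called.

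In soleus, nearly every collagen gene had a higher mean on HC, and none passed the test. Of 31 genes 0 were called (0.0% of all 12067 genes tested, limma) and 6 (19.4%) had an unadjusted p under 0.05, all higher, against 5.05% of all genes. A higher mean log2 value was found for 30 of 31, with a median log2 fold change of 0.40 against -0.01 over all genes, of which 45.7% were higher, and the log2 fold changes ran from -0.40 to 0.93. The groups failed to overlap for 0 of 31 genes, against 1.1% of all genes. All of these genes share their libraries, so the counts do not add up separate findings. The class medians were 0.51 for 10 fibrillar genes, 0.36 for 7 basement membrane genes, 0.24 for 5 fibril-associated genes and 0.52 for 3 genes of beaded filaments.

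The smallest p was that of Col15a1, a basement membrane collagen of muscle and vessels, which was at 116, 194, 160.5, 185 and 184 on STD and 164, 299, 244, 354 and 278 on HC. Of the 5 HC libraries 4 were above every STD library and library 75 was among them (log2 fold change 0.65 ± 0.20 (SE), adjusted p = 0.788, limma). Col4a1 was at 1449, 1722, 1574, 1583 and 1688 on STD and 1372, 2572, 2213, 2636 and 2074 on HC, with HC library 75 below every STD library and the other 4 above (log2 fold change 0.40 ± 0.15 (SE), adjusted p = 0.915, limma). Col4a2 was at 1184, 1399, 1299, 1384 and 1359.7 and 1188, 2018, 1722, 2062 and 1634, again with 4 HC libraries above (log2 fold change 0.36 ± 0.13 (SE), adjusted p = 0.915, limma).

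The fibrillar chains of types I, III and V had their highest value in HC library 79, while Col11a1 and Col11a2 had theirs in HC library 78 and Col24a1 in HC library 77. Col1a1 was at 319.8, 641, 594, 825 and 349 on STD and 445, 681, 669, 1011 and 1852 on HC, with library 79 the highest (log2 fold change 0.69 ± 0.35 (SE), adjusted p = 0.986, limma). Without library 79 the log2 fold change of Col1a1 was 0.40. Col1a2 was at 439.5, 644, 745, 1060.2 and 501 and 555, 811, 901, 1119 and 1958 (log2 fold change 0.60 ± 0.30 (SE), and 0.35 without library 79).

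Col3a1 was at 460.0, 605, 645, 1179 and 419 on STD and 419.5, 797, 809, 965 and 3341 on HC, and its log2 fold change went from 0.66 ± 0.44 (SE) to 0.21 without library 79. Col5a1 was at 153, 204, 192, 271 and 148 and 89.7, 221, 207, 258 and 592, and its log2 fold change of 0.28 ± 0.37 (SE) turned to -0.06 without that library. Col5a2 was at 123, 203, 166, 317 and 154 and 125, 216, 193, 266 and 643, with 0.43 ± 0.36 (SE) and 0.08. For these 3 chains the STD and HC libraries other than 79 overlapped through most of their range.

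Type VI chains were higher in 4 of the 5 HC libraries. Col6a1 was at 263, 343, 339, 373 and 285 on STD and 255, 446, 485, 492 and 718 on HC, with library 75 the lowest of all 10 and the other 4 above every STD library (log2 fold change 0.52 ± 0.21 (SE), adjusted p = 0.972, limma). Col6a2 had a log2 fold change of 0.40 ± 0.24 (SE) and Col6a3 of 0.56 ± 0.32 (SE). The one chain with a lower mean on HC was Col7a1, the anchoring fibril collagen, at 23.5, 33.5, 27.9, 33.3 and 23 on STD and 16.1, 26.4, 19.4, 21.5 and 22.7 on HC (log2 fold change -0.40 ± 0.19 (SE), adjusted p = 0.986, limma), named after its values were seen.

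The most abundant genes of the remaining classes overlapped between the diets. Col22a1 had a log2 fold change of 0.24 ± 0.19 (SE), the network chain Col8a1 of 0.43 ± 0.39 (SE), the transmembrane gene Col23a1 of 0.34 ± 0.18 (SE) and Col26a1 of 0.57 ± 0.43 (SE). Library 79 held the highest value of 15 of the 31 genes, library 75 the lowest of 8 and STD library 70 the lowest of 12. Without library 79, 28 of 31 genes had a higher mean with a median of 0.33, and without library 75, 30 of 31 with a median of 0.61, and in both fits 0 genes were called. The Schwann cell markers were higher on HC in 8 of 8 and summed to 1329 to 1835 on STD and 1943 to 7114 on HC, with 7114 in library 79 and 4813 in library 75, and 0 were called, and their part in the collagen values was not tested. Of the 5 enzyme, receptor and growth factor lists, 0 genes were called in soleus, with medians of 0.14, 0.35, 0.08, 0.13 and 0.06 and 2, 3, 1, 0 and 1 genes at an unadjusted p under 0.05.

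**Figure D4:**
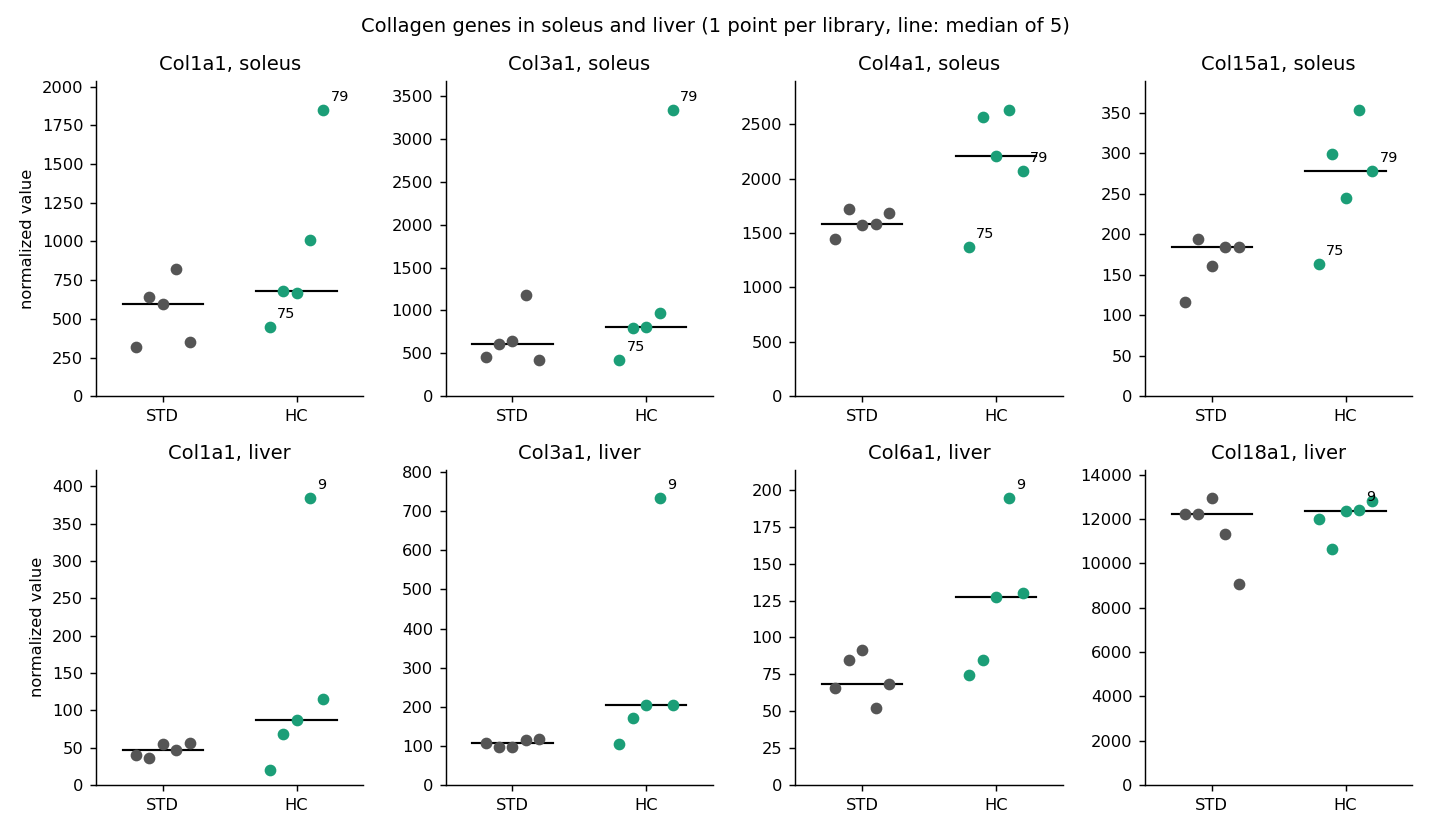
Values (normalized counts) of Col1a1, Col3a1, Col4a1 and Col15a1 in soleus and of Col1a1, Col3a1, Col6a1 and Col18a1 in liver on STD and HC, with 1 point a library and a line at each median, and libraries 75, 79 and 9 numbered. Library 79 is the high point of Col1a1 and Col3a1 in soleus, library 75 is the lowest HC point of Col4a1 and Col15a1, and library 9 is the high point in liver for all but Col18a1.

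In liver, 15 of 20 genes had a higher mean on HC, and 1 HC library held the highest value of most of them. None of the 20 genes was called (0 genes, against 0.0% of all 11497 genes tested, limma), and 6 (30.0%) had an unadjusted p under 0.05, 5 higher and 1 lower, against 4.24% of all genes. The median log2 fold change was 0.47 against -0.01 over all genes, of which 48.3% were higher, and the log2 fold changes ran from -0.38 to 1.07. Groups that did not overlap were found for 0 of 20, against 0.618% of all genes. The genes were measured in the same libraries, so these counts do not add up separate findings. HC library 9 held the highest value of 14 of the 20 genes, and without it 14 of 20 had a higher mean, with a median of 0.15, and 0 were called.

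Col6a1 had the smallest p in liver, at 65.5, 84.4, 91.2, 52 and 68.5 on STD and 74.6, 84.9, 127, 194 and 130.2 on HC. Of the HC libraries 3 were above every STD library (log2 fold change 0.69 ± 0.24 (SE), adjusted p = 0.995, limma), and without library 9 the log2 fold change was 0.51. Col3a1 was at 106, 96.9, 96.2, 114 and 117 on STD and 105, 172, 203, 733 and 203 on HC, where HC libraries 7 to 10 were above every STD library and library 6 was among them (log2 fold change 1.07 ± 0.38 (SE), adjusted p = 0.995, limma, and 0.64 without library 9). Col1a1 was at 40.4, 35.4, 54.9, 46.2 and 56.4 and 19.8, 67.8, 86.9, 384 and 115, with library 9 the highest and HC library 6 the lowest of the 10 (log2 fold change 0.92 ± 0.55 (SE), and 0.40 without library 9).

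Col1a2 was at 72.5, 90, 83.6, 73 and 83.5 on STD and 79.2, 91.6, 123, 388 and 156 on HC, with a log2 fold change of 0.80 ± 0.33 (SE) and of 0.43 without library 9. Col5a1 was at 71.5, 62.7, 58.3, 100.2 and 63 and 79, 79.8, 111, 165 and 95.1, with 0.54 ± 0.21 (SE) and 0.37. Col14a1, the most abundant fibril-associated gene, was at 274, 381, 219.9, 323 and 282 and 314, 349, 465, 876 and 355, with 0.58 ± 0.24 (SE) and 0.33. In each of these 3, library 9 was the highest of the 10 and at least 1 HC library lay within the STD range.

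Of 5 basement membrane genes tested in liver, 4 had a higher mean and 0 were called. Col18a1 was at 12210.3, 12230.3, 12936, 11322 and 9057 on STD and 12018, 10673, 12351, 12400.4 and 12818 on HC, and the groups overlapped (log2 fold change 0.07 ± 0.11 (SE), adjusted p = 0.995, limma). Col4a1 had a log2 fold change of 0.32 ± 0.19 (SE) and Col4a2 of 0.19 ± 0.15 (SE), falling to 0.14 and 0.07 without library 9, and Col4a5 of 0.47 ± 0.30 (SE). Col15a1, at 87, 69.9, 114, 123 and 106.7 on STD and 89.5, 58.1, 84, 79 and 70 on HC, was the 1 gene with a lower mean and a p under 0.05 (adjusted p = 0.995, limma), with overlap between the groups, and it is named after its values were seen. Its log2 fold change of -0.38 ± 0.17 (SE) stands beside one of 0.65 ± 0.20 (SE) in soleus, in tables normalized and tested apart.

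The remaining liver chains were not called either. The abundant type V chain Col5a3 had a log2 fold change of -0.03 ± 0.22 (SE), Col5a2 of 0.49 ± 0.38 (SE), Col6a2 of 0.52 ± 0.28 (SE), Col6a3 of 0.47 ± 0.36 (SE) and the transmembrane Col13a1 of -0.09 ± 0.23 (SE). The fibrillar class held 4.91 to 7.73% of the summed level per kb on STD and 5.14 to 14.7% on HC. Stellate cell markers were higher in 6 of 6 and summed to 1775 to 2695 on STD and 2218 to 3230 on HC, fibroblast markers to 1398 to 1891 and 1430 to 2808, and bile duct markers to 466 to 725 and 533 to 1329, each with its highest sum in library 9, and their part in the collagen values was not tested. Of the 5 lists of collagen enzymes and partners, 0 genes were called in liver, with medians of -0.04, 0.39, 0.16, 0.33 and 0.03 and 0, 3, 0, 2 and 1 genes at an unadjusted p under 0.05.

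In AML12 cells the question was whether loss of Acly, by siRNA or by inhibitors, changed these genes. In untreated cells, siAcly against siC, 0 of 15 collagen genes were called against 0.187% of all 12296 genes tested (limma), and 2 (13.3%) had an unadjusted p under 0.05 against 19% of all genes. These were Col7a1, higher, and the type IV chain Col4a5, lower, with a log2 fold change of -0.62 ± 0.29 (SE) (adjusted p = 0.257, limma). Over the mean of the 4 treatments, 1 of 15 was called, higher, against 4.77% of all genes called and 2.73% called higher, and 2 had an unadjusted p under 0.05 against 22.4%. Of the 15 genes 10 had a higher mean in siAcly, with a median log2 fold change of 0.09 and a range of -0.49 to 1.07. The 15 genes tested in these cells were Col1a1, Col4a1, Col4a2, Col4a5, Col4a6, Col5a1, Col6a1, Col7a1, Col11a2, Col12a1, Col15a1, Col16a1, Col18a1, Col20a1 and Col27a1.

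The gene called was Col7a1, whose protein makes the anchoring fibrils under epithelia. In siC it was at 62.7, 54.1 and 63 in Ut, 82, 50.7 and 129 with HC, 56.9, 85.6 and 143 with SB and 122, 93 and 125 with Bemp. In siAcly it was at 301, 122 and 62.1 in Ut, 141, 122 and 330.2 with HC, 148, 165 and 386 with SB and 179, 117 and 336 with Bemp. Each group held 1 library far above its fellows in siAcly, and those were libraries 84, 86, 85 and 87. Col7a1 rose by 1.07 ± 0.26 (SE) on the log2 scale over the 4 treatments (adjusted p = 0.0244, limma), and in Ut alone its log2 fold change was 1.13 ± 0.53 (SE) (adjusted p = 0.251) and 0.54 without siAcly library 84. No siC library in Ut has a number from 81 to 87. The call was lost without siC Bemp library 10 (adjusted p = 0.0548) and without siAcly SB library 85 (adjusted p = 0.0543), and it held without the library labelled siC Bemp 11, whose Acly was low (1.08, adjusted p = 0.0338).

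The libraries numbered 1 to 23 and those numbered 81 to 87 differed in Col7a1 within each siRNA. In siC it was at 50.7 to 122 in the 9 libraries of the first series (median 63) and 125 to 143 in the 3 of the second, and in siAcly at 62.1 to 179 in 8 libraries (median 132) and 301 to 386 in 4. Within the second series the siAcly libraries were all above the siC libraries, and within the first they overlapped. With the series as a covariate the log2 fold change was 0.97 (adjusted p = 0.000397, limma). Col4a2, with the next smallest p over the 4 treatments (log2 fold change 0.42 ± 0.15 (SE), adjusted p = 0.112, limma), was at 2626 to 5318 and 4809 to 5801 in siC and 3855 to 6898 and 7189 to 7568 in siAcly for the first and second series.

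**Figure D5:**
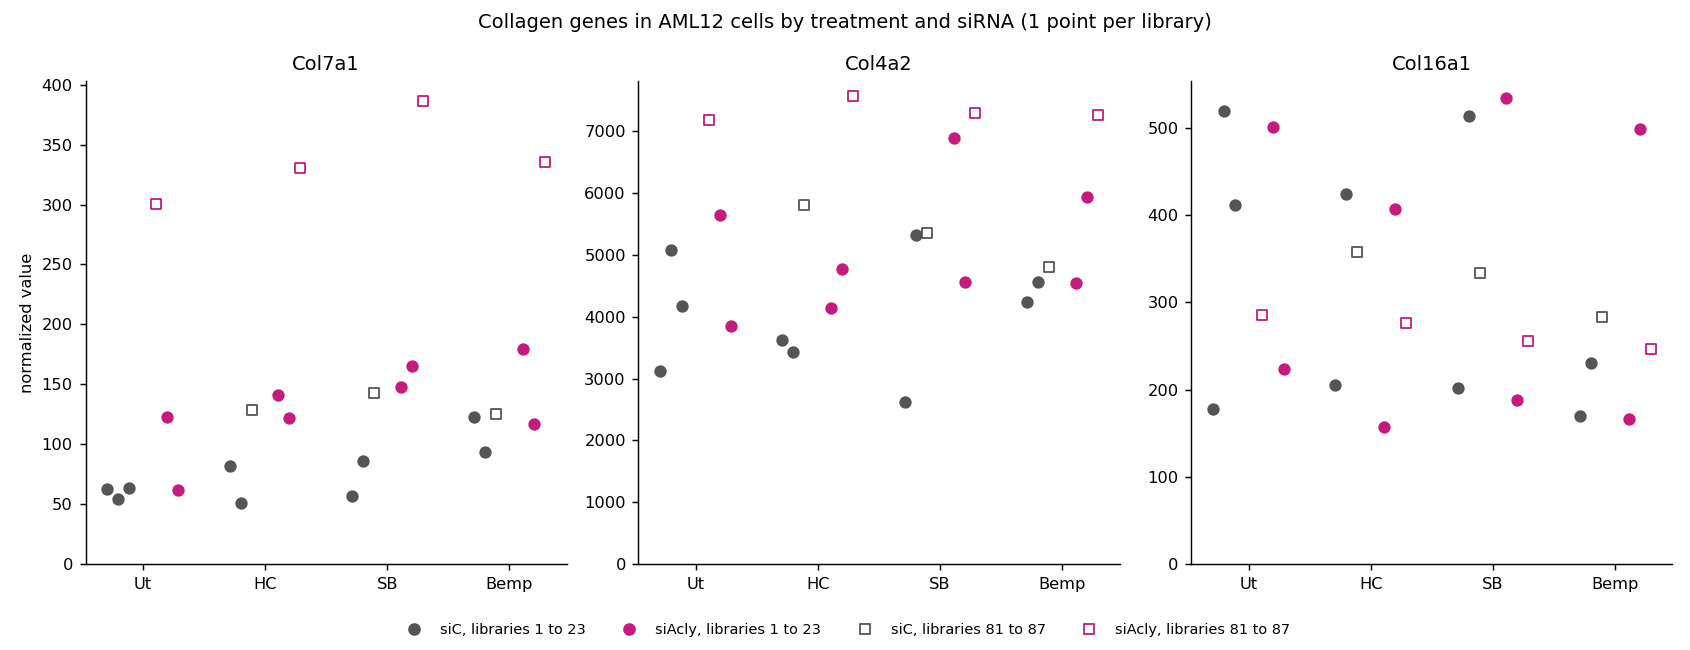
Values (normalized counts) of Col7a1, Col4a2 and Col16a1 in the 24 libraries of AML12 cells, set out by siRNA arm and drug, with filled points for libraries 1 to 23 and open squares for libraries 81 to 87. Col7a1 is at 301 to 386 in the 4 open squares of siAcly and at 125 to 143 in the 3 of siC.

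No collagen gene was called for any inhibitor against Ut. With HC in siC cells, 0 of 15 genes were called (0.0% of all genes) and 0 had an unadjusted p under 0.05, against 0.342% of all genes. With SB in siC cells both counts were 0, against 0.0% and 0.569% of all genes, and with Bemp they were 0 against 0.0% and 1.95%. In siAcly cells both counts were 0 as well, against 0.0% and 2.2% of all genes for HC, 0.0% and 13.4% for SB, and 0.0% and 2.55% for Bemp. The smallest p in siC cells were those of Col5a1 with HC (-0.89 ± 0.71 (SE)), the fibril-associated Col20a1 with SB (-0.69 ± 0.53 (SE)) and Col7a1 with Bemp (0.90 ± 0.53 (SE)), given as log2 fold changes. Next came Col27a1 with HC (0.29 ± 0.29 (SE)) and Col4a5 with SB (-0.33 ± 0.29 (SE)) and with Bemp (-0.37 ± 0.29 (SE)). None of these exceeded the spread within its groups by the test.

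In siAcly cells the smallest p were those of Col20a1 with HC (-0.92 ± 0.53 (SE)), Col4a5 with SB (0.51 ± 0.29 (SE)) and the fibrillar chain Col11a2 with Bemp (-1.07 ± 0.76 (SE)). Next came Col12a1 with HC (-0.76 ± 0.58 (SE)) and with Bemp (-0.60 ± 0.58 (SE)), and Col7a1 with SB (0.68 ± 0.53 (SE)). The inhibitors were given at different concentrations and were not set against each other.

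Of the 5 lists of collagen enzymes and partners, 6 genes were called with siAcly over the 4 treatments, against 4.77% of all genes called and 22.4% at an unadjusted p under 0.05. Of 18 tested folding genes 13 had a higher mean, 9 had a p under 0.05 and 2 were called, both lower, the endoplasmic reticulum channel Tmem38b, which fell by 1.64 (adjusted p = 0.000681, limma), and the prolyl isomerase Fkbp14, which fell by 0.80 (adjusted p = 0.00188). Of 8 processing genes 4 had a p under 0.05 and 1 was called, and this one, Pcolce, an enhancer of procollagen cleavage, rose by 0.58 (adjusted p = 0.0211), and of 5 breakdown genes 2 had a p under 0.05 and 1 was called, Timp1, which rose by 0.60 (adjusted p = 0.00950). Of 11 TGF-beta genes 3 had a p under 0.05 and 2 were called, both lower, the receptor Tgfbr1, which fell by 0.67 (adjusted p = 0.00974), and the ligand Tgfb2, which fell by 0.36 (adjusted p = 0.0396), and of 4 receptors of collagen 3 had a p under 0.05 and 0 were called. In the other AML12 comparisons no gene of the 5 lists was called.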

How the data were processed

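RNA sequencing of 59 libraries in 17 groups was analysed from 4 tables, 1 a tissue or cell line, with groups taken from the labels. The authors aligned reads to the mouse genome (mm10), counted them per gene and deposited values normalized by DESeq2's median of ratios, so the deposited signal of a gene is a count divided by a size factor. Whole reads could not be recovered for nearly all genes, so no count test was run. The labels name an rRNA depletion kit with a directional library kit for liver and soleus, while the methods and the other labels name a stranded mRNA kit. The estimated depth was 16.0 to 34.9 M reads a library in gastrocnemius, 8.93 to 11.2 M in soleus, 7.69 to 13.1 M in liver and 7.31 to 16.3 M in AML12.

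Genes that reached 10 in as many libraries as the smallest group has were tested with limma 3.58.1 in R 4.3.3 (lmFit and eBayes with trend) on log2(value + 1), with all groups of a table in 1 fit and no covariate, and a gene was called at an adjusted p under 0.05 (Benjamini-Hochberg over all genes tested). A log2 fold change on this scale understates the change of low genes. In all 19 comparisons were made, of which those of 1 table share their spread and often their control libraries. The fit was tested on simulated data with 200 changed genes, where it called 29% of those with a log2 change of 1 and 61% of those with 2 in CTX-HC day 2 against uninjured, and 80% and 98% in soleus.

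The members and lists were chosen with earlier results of these data known. Named genes were the called members, up to 10 a direction, the most abundant of each class and the chains of types I, III, IV (1 and 2), V (1 and 2) and VI (1 to 3) in the tissues, the 2 smallest p where none was called, and up to 2 called genes a direction of each of 5 pathway lists. The 15 lists of cell markers were described by sums. Alternatives were other pseudocounts (0.5 and 5), no filter, quantile normalization, fits of only the groups compared, the threshold of the study, a replicate block, a covariate for the series a library's number belongs to and leaving out libraries. Replicate numbers in soleus and liver did not pair the libraries.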

Additional observations from a re-analysis of the deposited data

Results flagged for a closer look

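In groups of 5 libraries, a value was marked where its gap to the nearest library was above Dixon's 95% limit for the group's range, which chance alone gives in about 1 of 20 groups. Of 102 such tests on collagen genes, 12 were marked, 5 of them in liver HC library 9 and 3 in soleus HC library 79. In liver HC, library 9 was far above its fellows for Col14a1 (876, next 465), Col1a1 (384, next 115), Col1a2 (388, next 156), Col3a1 (733, next 203.5) and Col5a2 (63.1, next 23.9). In liver STD, library 4 was high for Col11a2 (22.2, next 14.8).

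In soleus HC, library 79 was high for Col3a1 (3341, next 965), Col5a2 (643, next 266) and Col8a1 (355.0, next 145), and library 75 was low for Col4a5 (29.7, next 55.6). In soleus STD, library 73 was high for Col16a1 (86.4, next 43.9) and Col5a3 (260.5, next 190.2).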

How the results depend on the processing

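Beside the values as reported, 157 counts of called collagen genes were computed under other settings, of which 140 were within 1.5 times the reported count, and 146 with 1 library left out, of which 135 were. The study took genes with p up to 0.05 and a change of 1 or more in size on the log2 scale, by DESeq2. It does not state whether that p was adjusted. At these limits with the unadjusted limma p, 9 of 38 collagen genes passed in CTX day 2 against uninjured (4.73% of all genes). In CTX-HC day 2 against uninjured 12 passed (18.5%). In CTX day 30, 5 passed against uninjured (1.63%) and 6 against CTX day 2 (8.88%). A single gene passed in each of CTX-HC against CTX at day 30 (0.428%), the interaction (1.27%), liver HC (0.557%, 1 of 20) and siAcly in untreated cells (4.15%, 1 of 15). In CTX-HC day 2 against uninjured the count was 1 of 44 with no filter (Col6a6 at adjusted p = 0.0538, limma), 5 after quantile normalization, 12 of 35 with only the groups compared, 14 without libraries 51 and 62, and 0 to 4 with 1 library left out, 0 without uninjured library 54 and 4 without CTX-HC library 60. In CTX day 30 against CTX day 2 it was 1 without libraries 51 and 62. In CTX-HC day 30 against CTX-HC day 2 it was 3 after quantile normalization, 0 with only the groups compared (Col6a6 at adjusted p = 0.114, limma), 10 without libraries 51 and 62, and 0 to 6 with 1 library left out, 0 without library 63 and 6 without library 62. For siAcly over the 4 treatments it was 2 with a covariate for the numbered series and 0 to 1 with 1 library left out. The cause of these moves was not tested. With the replicate block in soleus and liver, 0 collagen genes were called, as without it, and same-numbered libraries correlated at -0.11 to 0.40 in soleus and 0.02 to 0.08 in liver, with the own number highest in 1 of 5 and 2 of 5.

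Of 646 log2 fold changes of named genes under other settings, 3 changed sign: Col26a1 in CTX-HC day 2 (-0.37) and Col5a3 in liver (0.0014) after quantile normalization, and Col4a1 in CTX-HC against CTX at day 30 (0.20) without libraries 51 and 62. Of 715 with 1 library left out, 24 changed sign, over ranges of -0.068 to 0.54 for Col6a3 in CTX day 2, -0.028 to 0.78 for Col4a2 and -0.14 to 0.59 for Col26a1 in CTX-HC day 2, -0.35 to 0.56 for Col1a1 and -0.064 to 0.31 for Col4a1 in CTX-HC against CTX at day 2, and -0.46 to 1.22 for Col1a1, -0.51 to 1.07 for Col3a1 and -0.77 to 0.23 for Col4a1 at day 30. They were -0.064 to 0.61 for Col5a1 in soleus, -0.24 to 0.050 for Col13a1, -0.016 to 0.11 for Col18a1 and -0.23 to 0.11 for Col5a3 in liver, and -1.0 to 0.0145 for Col12a1 with Bemp in siAcly cells. With 3 libraries a group, the SE of a log2 fold change at day 2 was 0.34 for Col4a3 and 0.76 for Col1a1, which limits the size of change that could be called.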
